A study of Mus musculus with 6 samples.

Results

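The 9 genes described here encode subunits of cytochrome c oxidase that exist as tissue-specific and ubiquitous isoforms, with 1 related factor. They were selected by gene symbol from a table of 19241 genes measured by RNA-seq of total RNA from interscapular brown adipose tissue of newborn mice, without separating its cells, and all 9 are listed once and lie above the level at which genes were tested. The tissue isoforms are Cox4i2, Cox6a2, Cox7a1 and Cox8b, and their ubiquitous counterparts are Cox4i1, Cox6a1, Cox7a2 and Cox8a. The remaining gene, Cox7a2l, encodes a relative of the subunit 7A isoforms. There were 3 libraries whose genotype is given as Fstl1-floxed, called WT, and 3 given as Myf5-Fstl1 KO, called KO. The KO deletes Fstl1, which encodes a secreted glycoprotein, in descendants of cells that expressed Myf5, so that other cells of the depot keep the gene. The labels do not say whether WT mice carried a Cre, and they give no strain, sex, exact age or pooling.

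Cytochrome c oxidase is complex IV of the respiratory chain. It takes electrons from cytochrome c, reduces oxygen to water and pumps protons across the inner mitochondrial membrane. Its catalytic core is encoded by mitochondrial DNA, and nuclear genes encode the surrounding subunits, which stabilise and regulate the enzyme. Heart and skeletal muscle use isoforms 6A2, 7A1 and 8B, and brown fat is known for strong expression of Cox7a1 and Cox8b, which are often used as thermogenic markers. Isoform 4I2 is known from lung and from pericytes, the contractile cells of small vessels, and is linked to low oxygen. The isoform pairs bear on whether the depot kept its brown fat pattern of isoform transcripts when the Myf5 lineage lacked Fstl1. The values are of RNA, and isoform protein is not described here.

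The 3 genes Cox6a2 (chr7:128205435-128206366), Cox7a1 (chr7:30184171-30186030) and Cox8b (chr7:140898942-140900446) lie on chromosome 7, far apart from each other. Cox4i2 lies at chr2:152753916-152765039, Cox4i1 at chr8:120668225-120674209, Cox6a1 at chr5:115345652-115348958, Cox7a2 at chr9:79755241-79771422, Cox8a at chr19:7215158-7217616 and Cox7a2l at chr17:83501917-83514333. These spans cover each whole protein-coding gene, exons and introns, in RefSeq on GRCm38.p6, the assembly known as mm10, which the submitters' processing notes name. For Cox7a2 the span also takes in a predicted transcript that starts farther upstream, so its printed upstream stretch lies inside it. Upstream sequence from RefSeq was matched for 6 of the 9 genes. The COX7A and COX8 pairs are shown because both members of each were abundant and varied together between libraries, as described below. Each line gives the bases from 250 to 51 upstream of the RefSeq transcription start, 5′ to 3′ on the gene's strand, and capitals mark CpG dinucleotides.
Cox7a1, chr7:30183921-30184120, plus strand: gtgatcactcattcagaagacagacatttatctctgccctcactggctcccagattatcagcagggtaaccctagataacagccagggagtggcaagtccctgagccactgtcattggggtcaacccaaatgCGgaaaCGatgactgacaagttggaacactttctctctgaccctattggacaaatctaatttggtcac
Cox7a2, chr9:79759904-79760103, minus strand: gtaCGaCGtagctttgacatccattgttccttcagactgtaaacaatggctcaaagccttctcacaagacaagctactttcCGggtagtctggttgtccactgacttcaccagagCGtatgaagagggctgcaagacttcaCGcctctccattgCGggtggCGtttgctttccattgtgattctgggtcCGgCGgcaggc
Cox8b, chr7:140900497-140900696, minus strand: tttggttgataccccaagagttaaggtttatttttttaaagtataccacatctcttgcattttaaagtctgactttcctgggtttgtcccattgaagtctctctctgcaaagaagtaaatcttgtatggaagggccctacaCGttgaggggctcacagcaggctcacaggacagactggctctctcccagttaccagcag
Cox8a, chr19:7217667-7217866, minus strand: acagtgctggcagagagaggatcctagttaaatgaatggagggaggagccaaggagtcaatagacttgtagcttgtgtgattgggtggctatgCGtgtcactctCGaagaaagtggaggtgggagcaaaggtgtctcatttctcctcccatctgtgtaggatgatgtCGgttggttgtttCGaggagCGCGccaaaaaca
The tissue isoforms had few CpG dinucleotides in these stretches, 2 for Cox7a1 and 1 for Cox8b, against 9 for Cox7a2 and 6 for Cox8a. Over all 250 upstream bases the observed-to-expected CpG ratio was 0.244 for Cox7a1 and 0.0726 for Cox8b, and 0.751 for Cox7a2 and 0.676 for Cox8a. The median of 32851 RefSeq promoters of the same length was 0.373. A lower ratio than that of Cox8b was found in 10.8% of them, and a lower ratio than that of Cox7a1 in 36.0%. For Cox8a and Cox7a2 these shares were 71.5% and 77.2%. Cox6a1, at 1.06, and Cox7a2l, at 0.778, also lay above the median. The binding motif of the estrogen-related receptors, TNAAGGTCA, searched on both strands, was present in none of the 6 upstream windows of 250 bases and in 1.14% of all such windows. The motif of nuclear respiratory factor 1, likewise on both strands, was present in the Cox6a1 window alone among the 6, against 3.74% of all windows, and CAGCTG, an E-box bound by myogenic factors, in that of Cox8b alone, outside the stretch shown, against 4271 of the 32851. Such matches describe letters and are not binding sites.

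Some facts of the libraries bear on all the comparisons. By an estimate from the steps between low values, depth was 13900000 to 15100000 reads per library. Fstl1 itself was at 54.4 to 130.04 FPKM in WT and 7.93 to 13.1 FPKM in KO, without overlap. FPKM count fragments relative to the length of the transcript and the depth of the library. As a check chosen after the values were seen, every KO library contained the Y-linked transcript Ddx3y, at 59.5 to 60.8 FPKM, and every WT library contained Xist, at 44.8 to 85.5 FPKM, so sex and genotype cannot be told apart in any difference given here. WT replicate 3 stood apart in red cell RNA, with 14390 FPKM summed over 9 erythroid markers against 3070 to 5065 in the other 5 libraries. KO replicate 1 stood apart in muscle RNA, with 446 FPKM summed over 26 skeletal muscle markers against 1729 to 2504 in the others. In bulk tissue, fewer cells of a type and less RNA per cell cannot be told apart. The labels do not state that libraries came from separate litters or preparations, so p-values measure only the spread between these samples.

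The subunit 8 pair was expressed at near equal levels per transcript length. Subunit 8 is one of the smallest subunits of the enzyme. Cox8b, its muscle and brown fat isoform, was at 1213, 1665 and 2772 FPKM in replicates 1, 2 and 3 of WT, against 2039, 1923 and 1611 FPKM in those of KO. The KO values all lay inside the WT range. Cox8a, the ubiquitous isoform, was at 1481, 1772 and 2633 FPKM in WT against 1762, 1927 and 1645 in KO. Again WT replicate 1 was the lowest library and WT replicate 3 the highest. The ratio of Cox8b to Cox8a was 0.819, 0.940 and 1.05 in WT and 1.16, 0.998 and 0.980 in KO, so the tissue isoform made up 45.0% to 53.6% of the pair in every library. In estimated reads, which do not allow for the shorter Cox8b transcript (360 nt against 550 nt), Cox8b was at 0.508 to 0.717 of Cox8a. The mean ratio was 0.937 ± 0.117 (SD, n = 3) in WT and 1.05 ± 0.0976 (SD, n = 3) in KO. The log2 ratio differed by 0.16, an exact two-sided permutation p of 0.4 (0.667 adjusted over the 4 pairs), and the groups overlapped. With 3 libraries against 3 this test cannot go below 0.1, so none of the 4 ratios could have passed a threshold of 0.05.

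The tissue isoform of subunit 7A exceeded its partner in every library. Cox7a1, the heart, muscle and brown fat isoform, was at 684, 999 and 1339 FPKM in WT against 934, 994 and 862 in KO. Cox7a2, the isoform of liver and most other tissues, was at 519, 642 and 819 FPKM in WT against 619, 735 and 614 in KO. For both genes every KO value lay between the lowest and the highest WT value. The ratio of Cox7a1 to Cox7a2 was 1.32, 1.56 and 1.64 in WT and 1.51, 1.35 and 1.40 in KO, with means of 1.503 ± 0.1645 and 1.421 ± 0.0805 (SD, n = 3 each). The log2 ratio was lower in KO by a difference of −0.08, well inside the spread between libraries (exact two-sided permutation p 0.5, 0.667 adjusted over the 4 pairs). Cox7a1 thus supplied 56.9% to 62.0% of the pair's FPKM in WT and 57.5% to 60.1% in KO. This predominance is per transcript length. The Cox7a1 transcript, at 393 nt, is shorter than that of Cox7a2, at 659 nt, and in estimated reads Cox7a1 was at 0.743 to 0.921 of Cox7a2. The comparison of KO with WT does not depend on these lengths.

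**Figure D1:**
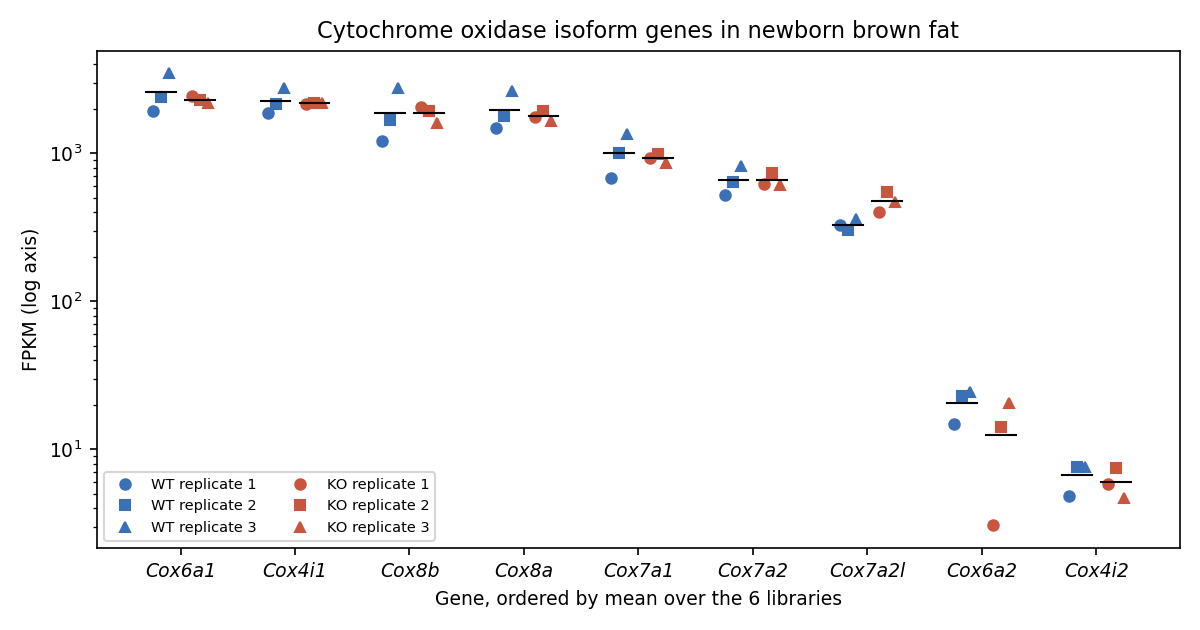
FPKM (log axis) of the 9 isoform genes in each library, WT in blue and KO in red, with circles, squares and triangles for replicates 1, 2 and 3 and black bars for group means. The 6 genes from Cox6a1 to Cox7a2 lie between 519 and 3466 FPKM with KO inside the WT range, Cox7a2l lies higher in KO, and Cox6a2 and Cox4i2 lie far lower.

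The subunit 6A transcripts were almost wholly those of the ubiquitous isoform. Subunit 6A takes part in the regulation of the enzyme by ATP and ADP. Cox6a1, the ubiquitous isoform, was at 1918, 2396 and 3466 FPKM in WT against 2432, 2280 and 2186 in KO, and it had the highest mean of the 9 genes. Cox6a2, the heart and skeletal muscle isoform, was at 14.9, 22.8 and 24.4 FPKM in WT against 3.07, 14.1 and 20.5 in KO. KO replicate 1 was the lowest library by far, and KO replicate 3 lay inside the WT range. The tissue isoform supplied 0.699% to 0.942% of the pair in WT and 0.126%, 0.615% and 0.930% in KO. The log2 ratio of Cox6a2 to Cox6a1 differed by −0.94 between KO and WT (exact two-sided permutation p 0.4, 0.667 adjusted over the 4 pairs). Without KO replicate 1 the difference was −0.08, so its size came from that library.

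Cox6a2 resembled skeletal muscle genes in its pattern over the 6 libraries. The genes closest to it in pattern, by the root-mean-square distance between centred log2(FPKM + 1) profiles among 8364 genes of at least 5 FPKM, were Ckm, Myl4 and Actc1, at distances of 0.144, 0.157 and 0.171. They encode muscle creatine kinase, a myosin light chain of developing muscle and the cardiac actin that developing skeletal muscle also uses. Ckm was at 98.6, 150.2 and 127.8 FPKM in WT against 25.3, 101.4 and 146.4 in KO, low in KO replicate 1 as Cox6a2 was. Per 1000 FPKM of the 26 muscle markers, a measure chosen after the values were seen, Cox6a2 was at 8.59, 9.10 and 12.3 FPKM in WT against 6.89, 7.51 and 9.11 in KO. The 7.94-fold range of Cox6a2 between libraries thus stands beside muscle marker sums in which KO replicate 1 was also lowest, and the part of muscle RNA in the Cox6a2 difference was not tested. Of the 25 muscle markers tested, 24 were lower and 1 higher in KO with a median log2 fold change of −0.64. None passed the threshold in limma, against 2.21% of all tested genes, and 1 had an unadjusted p under 0.05, against 19.2%. Without KO replicate 1 the median was 0.06, with 10 lower and 15 higher. The 3 markers with the smallest p were Mb, Tnnt1 and Tnnc2, with adjusted p of 0.169, 0.342 and 0.367 in limma. No muscle marker was at 0 in any library, and Cox7a1 and Cox8b in KO replicate 1, at 934 and 2039 FPKM, lay inside the range of the other libraries.

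**Figure D2:**
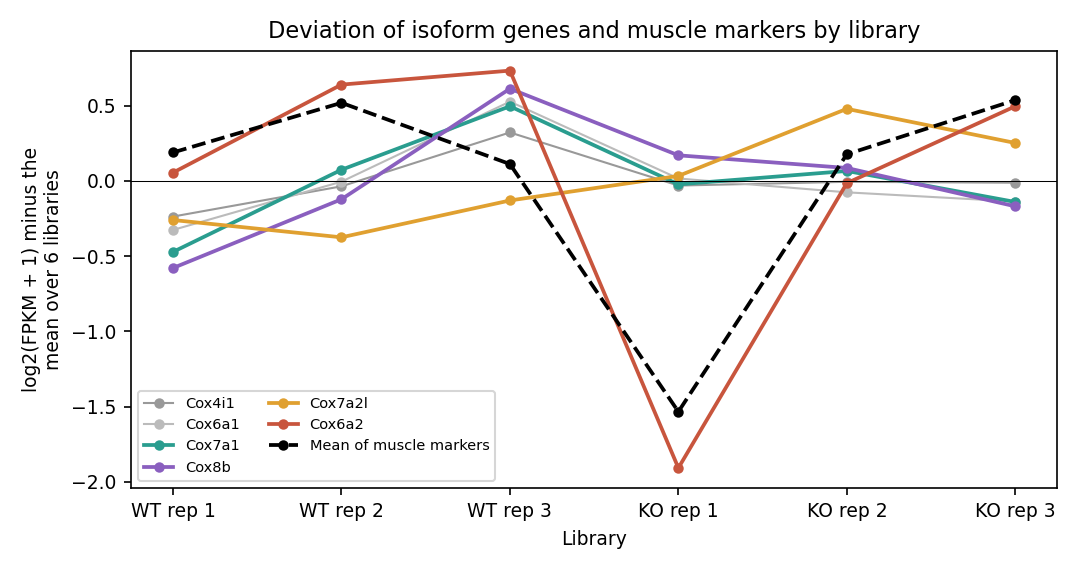
Deviation of log2(FPKM + 1) from its mean over the 6 libraries for 6 isoform genes and for the mean of the tested skeletal muscle markers (dashed), 1 point per library. Lines only join the values of a gene: Cox6a2 and the muscle markers drop in KO replicate 1, at −1.91 and −1.53, while Cox7a1 and Cox8b peak in WT replicate 3.

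Cox4i2, the subunit 4 isoform linked to low oxygen, was the least abundant of the 9 genes. Subunit 4 binds ATP and helps set the activity of the enzyme. Cox4i2 was at 4.84, 7.61 and 7.62 FPKM in WT against 5.81, 7.53 and 4.69 in KO, which corresponds to an estimated 48 to 78 reads per library. Cox4i1, the ubiquitous isoform, was at 1863, 2141 and 2746 FPKM in WT against 2149, 2186 and 2177 in KO. The 3 KO values of Cox4i1 were almost the same, with an SD of 0.881% of the mean, against 20.1% in WT. Cox4i2 supplied 0.259% to 0.354% of the pair in WT and 0.215% to 0.343% in KO. The log2 ratio differed by −0.12 (exact two-sided permutation p 0.7, 0.7 adjusted over the 4 pairs), and it changed sign when WT replicate 2 or KO replicate 3 was left out. The genes nearest to Cox4i2 in pattern were Arhgef25, Echdc3 and Krtcap2, at distances of 0.0675, 0.07 and 0.0747. Among the 12 markers of mural cells, the pericytes and smooth muscle of vessels, 11 were lower and 1 higher in KO, and the pericyte genes Higd1b (log2 fold change −1.17, SE 0.20, limma adjusted p 0.0318) and Cspg4 (−1.19, SE 0.24, 0.0435) fell. The groups did not overlap for either, with Higd1b at 2.14, 3.57 and 2.57 FPKM in WT against 0.41, 0.57 and 1.04 in KO. With a pseudocount of 0.1 the log2 fold change of Higd1b was −1.94. Both calls were lost without the filter on low values (limma adjusted p 0.0859 for Higd1b and 0.122 for Cspg4) and without WT replicate 2, WT replicate 3 or KO replicate 2 (0.0853 to 0.120 for Higd1b and 0.124 to 0.183 for Cspg4). The Higd1b call was also lost without KO replicate 1 (limma adjusted p 0.0733), and the Cspg4 call without KO replicate 3 (0.124) and with the replicate number as a block (0.0741). In the fit on all libraries each of the other mural markers missed the threshold, and 1.01% of all tested genes were called lower. The summed mural markers were at 233 to 290 FPKM in WT and 203 to 238 FPKM in KO, with none at 0. Of 11 hypoxia-induced genes tested 6 were higher and 5 lower, and none passed in limma, although 6 had an unadjusted p under 0.05, against 19.2% of all tested genes.

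**Figure D3:**
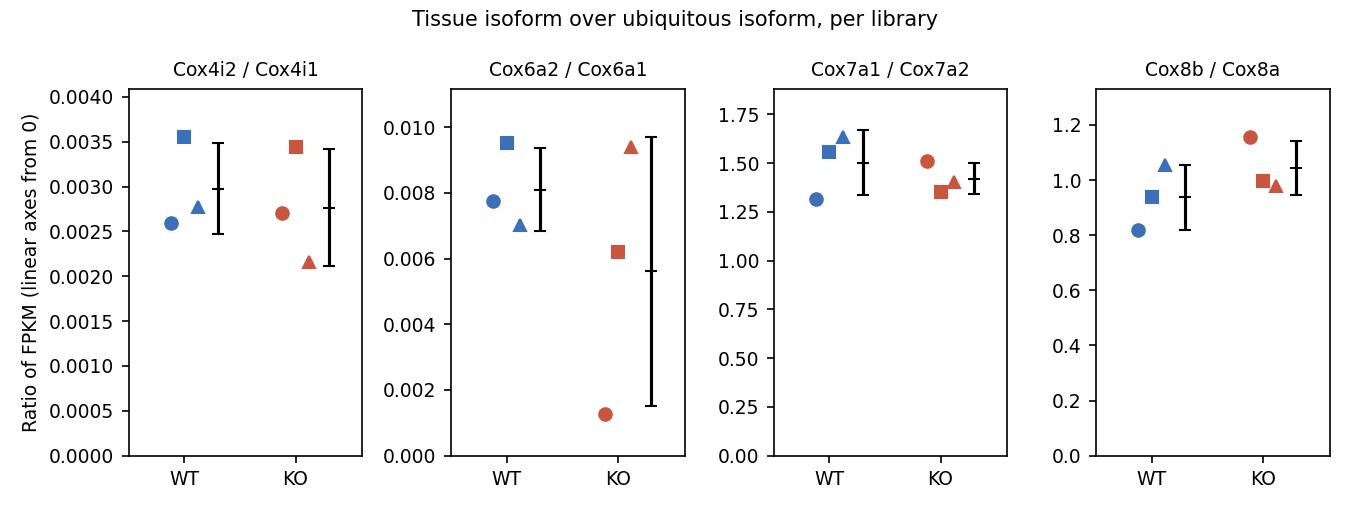
Ratio of the tissue isoform to the ubiquitous isoform in FPKM for the 4 subunits, on linear axes that start at 0 and differ between panels. Coloured points are libraries (circle, square and triangle for replicates 1, 2 and 3), and black bars give the mean and SD of 3 libraries. The groups overlap in all 4 panels, and KO replicate 1 has the lowest Cox6a2 ratio, 0.00126.

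Cox7a2l was the only 1 of the 9 genes whose groups did not overlap. It encodes a relative of subunit 7A, also called SCAFI, that joins complexes III and IV in respiratory supercomplexes, and some mouse strains carry a shortened form. It was at 328, 302 and 359 FPKM in WT against 402, 547 and 468 in KO. Each KO library lay above each WT library, as was the case for 13.6% of all 13331 tested genes. The means were 329 ± 28.2 FPKM and 472 ± 72.9 FPKM (SD, n = 3 each). On the log2(FPKM + 1) scale KO was higher by 0.51 (SE 0.16, 95% confidence interval 0.16 to 0.86), a fold of 1.11 to 1.82. It did not pass the threshold (limma, p 0.00996, adjusted p 0.126). An unadjusted p under 0.05, a looser bound than its own p, was found for 19.2% of all tested genes. Its direction held in all 14 alternative fits, with log2 fold changes of 0.40 to 0.62 and adjusted p of 0.0849 to 0.398 in limma, and it was called in none of them.

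Within the subunit 7A family the share of Cox7a2l was higher in KO, in a comparison chosen after the values were seen. Of the summed FPKM of Cox7a1, Cox7a2 and Cox7a2l, Cox7a2l made up 21.4%, 15.6% and 14.3% in WT and 20.6%, 24.0% and 24.1% in KO. WT replicate 1 lay above KO replicate 1 on this measure. The ratio of Cox7a2l to Cox7a2 alone was 0.632, 0.471 and 0.438 in WT and 0.649, 0.744 and 0.761 in KO. These groups did not overlap, by a narrow margin between WT replicate 1 and KO replicate 1. The log2 ratio differed by 0.50 (exact two-sided permutation p 0.1, the smallest possible). The log2 fold change of Cox7a2 was only 0.01, so this ratio largely restates the difference of Cox7a2l itself. The share of Cox7a1 in the family was 44.7% to 53.2% in WT and 43.7% to 47.8% in KO.

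In the fit over all genes none of the 9 isoform genes passed an adjusted p of 0.05, where 2.21% of all tested genes were called, 1.21% higher and 1.01% lower in KO. 6 were lower and 3 higher in KO, with a median log2 fold change of −0.06, against 0.01 over all genes. An unadjusted p under 0.05 was found for 1 of them, Cox7a2l, against 19.2% of all tested genes. The 95% confidence intervals of the 6 abundant genes of the COX6A, COX7A, COX8 and COX4 pairs were wide: they ran from −0.58 to 0.45 for Cox7a1, −0.56 to 0.68 for Cox8b, −0.41 to 0.43 for Cox7a2, −0.58 to 0.38 for Cox8a, −0.41 to 0.35 for Cox4i1 and −0.61 to 0.35 for Cox6a1. With 3 libraries a group, differences anywhere within these spans were compatible with the values. For Cox6a2 the interval was −2.14 to 0.24 (log2 fold change −0.95, SE 0.53, limma adjusted p 0.362). For Cox4i2 it was −0.61 to 0.35 (−0.13, SE 0.21, limma adjusted p 0.790).

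The abundant isoform genes varied more within WT than within KO. The SD of the 6 abundant genes was 20.1% to 42.6% of the mean in WT and 0.881% to 11.9% in KO. WT replicate 1 was the lowest and WT replicate 3 the highest of the 6 libraries for each of the 6. Without WT replicate 3 the 9 genes were 7 higher and 2 lower with a median of 0.13, and without WT replicate 1 they were 1 higher and 8 lower with a median of −0.28, so the direction of their small differences rested on which WT library was included. Short transcripts as a class moved the same way to a lesser degree: the median deviation of 767 tested genes with transcripts under 800 nt was −0.20 in WT replicate 1 and 0.14 in WT replicate 3, against −0.02 and −0.04 for longer transcripts. Cox8b deviated by −0.58 and 0.61 in these libraries, and Cox7a1 by −0.47 and 0.50. The part of transcript length, abundance, the scale of the library or red cell RNA in these values was not tested.

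The genes nearest to Cox7a1 in pattern included subunits of another respiratory complex. They were Uqcr10 and Uqcr11, small subunits of complex III, at distances of 0.0461 and 0.0463, and Tecr, an enzyme of fatty acid elongation, at 0.0504. Uqcr11 was at 712, 1025 and 1407 FPKM in WT against 976, 949 and 875 in KO. Those nearest to Cox8b were 0610011F06Rik, Iah1 and Lgals1, at 0.0711, 0.109 and 0.112. Among the isoform genes themselves Cox8a and Cox6a1 were closest, at 0.0707, and Cox7a1 was closer to Cox8a, at 0.0859, than to its own partner Cox7a2, at 0.111. Cox6a2 was at least 0.864 and Cox7a2l at least 0.305 from every other member. These distances describe 6 libraries that share 2 extremes, WT replicates 1 and 3.

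Ordered by mean level over the 6 libraries, the genes ran Cox6a1, Cox4i1, Cox8b, Cox8a, Cox7a1, Cox7a2, Cox7a2l, Cox6a2 and Cox4i2. Cox6a1 exceeded Cox4i1 in all 6 libraries, but the ratio ran from 1.0, nearly equal, to 1.26, with a median of 1.08. Cox4i1 exceeded Cox8b in 5 of 6, and Cox8b exceeded Cox8a in 2 of 6, so these neighbours were not separated beyond their spread. Cox8a exceeded Cox7a1 in all 6, by 1.77 to 2.17 times, and Cox7a1 exceeded Cox7a2 in all 6. The gap between Cox7a2l and Cox6a2 was 13.3-fold or more in every library, and Cox6a2 exceeded Cox4i2 in 5 of 6, the exception being KO replicate 1. Although each complex holds 1 copy of each of these subunits, the mean summed FPKM of the pairs differed. In KO they were 2177 ± 19.7 for COX4, 2312 ± 115 for COX6A, 1586 ± 129.6 for COX7A and 3636 ± 330 for COX8 (SD, n = 3). In WT they were 2257 ± 452, 2614 ± 797, 1667 ± 478 and 3845 ± 1401 in the same order (SD, n = 3). The pairs were thus less clearly separated in WT, where the spread was wider.

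All KO values of Cox7a1 and Cox8b lay inside the WT range, whereas those of the uncoupling protein gene Ucp1, another brown fat marker, lay below it. Ucp1 was at 4366, 6124 and 6255 FPKM in WT against 2902, 1695 and 3592 in KO (limma log2 fold change −1.08, adjusted p 0.0804, not past the threshold). Per Ucp1, a ratio chosen after the values were seen, Cox8b was at 0.278, 0.272 and 0.443 in WT and at 0.703, 1.14 and 0.449 in KO, and Cox7a1 at 0.157, 0.163 and 0.214 in WT and at 0.322, 0.586 and 0.240 in KO. Neither ratio overlapped between the groups, by a narrow margin for Cox8b between WT replicate 3 and KO replicate 3. Ucp1 itself did not overlap, so these ratios largely restate its difference and are no separate result on the isoforms. The share of all genes whose ratio to Ucp1 did not overlap was not determined. Of the 12 brown fat markers 9 were lower and 3 higher in KO with a median log2 fold change of −0.67, and 3 fell: Elovl3, a fatty acid elongase (log2 fold change −2.34, limma adjusted p 0.0151), Otop1, a proton channel (−1.52, 0.0243), and Plin5, a lipid droplet protein (−1.37, 0.0435). The groups did not overlap, with KO below, in 7 of these 12 markers, against 11.4% of all tested genes, and 1.01% of all tested genes were called lower. The 3 markers that were higher in KO, with overlapping groups, were Ppargc1a (log2 fold change 0.52, limma adjusted p 0.251), Cpt1b (0.17, 0.658) and Cidea (0.13, 0.747). Of 8 white fat and general adipocyte markers 4 were higher and 4 lower, and Plin1, a lipid droplet protein, and Lep, which encodes leptin, fell (log2 fold changes −1.36 and −1.07, limma adjusted p 0.0267 and 0.0423). Lep was at 0.91, 2.22 and 0.98 FPKM in WT against 0.11, 0.13 and 0.06 in KO, and at such levels the pseudocount sets the size: with 0.1 in place of 1 the log2 fold change was −2.79. All 5 of these calls were lost without the filter on low values (limma adjusted p 0.0707 to 0.119), without WT replicate 2 (0.0740 to 0.183) and without WT replicate 3 (0.0815 to 0.139), and all but that of Elovl3 also without KO replicate 2 (0.0771 to 0.1004) or KO replicate 3 (0.0551 to 0.118). Quantile normalization ended the Plin5 call (0.0589), the replicate block those of Plin5, Plin1 and Lep (0.0523 to 0.0775), and leaving out KO replicate 1 that of Lep (0.0949). The brown fat markers were all detected in every library, with summed FPKM of 6304 to 8950 in WT and 3760 to 6030 in KO. Ucp1 was the largest part of each sum, so these sums do not describe the 12 markers as a set. The next most abundant marker, Cidea, was at 1604 ± 351 FPKM in WT and 1725 ± 99.9 FPKM in KO (SD, n = 3 each).

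The other nuclear-encoded subunits, which have no brown fat or muscle partner of this kind, differed between the groups by less than the spread between libraries. Of 9 listed in the table, 6 were higher and 3 lower in KO with a median log2 fold change of 0.04. None passed the threshold in limma, against 2.21% of all tested genes, and 0 had an unadjusted p under 0.05, against 19.2%. These directions also rested on WT: without WT replicate 1 all 9 were lower, and without WT replicate 3 only 1 was. Cox6b1 was at 2272 ± 533 FPKM in WT and 2289 ± 92.2 FPKM in KO (SD, n = 3), Cox5b at 2208 ± 527 and 2016 ± 26.1, and Cox6c at 1728 ± 369 and 1774 ± 222. Ndufa4, a subunit first assigned to complex I, was at 1574 ± 307 and 1612 ± 149, Cox7c at 1411 ± 179 and 1421 ± 107, Cox5a at 1273 ± 194 and 1177 ± 14.1, and Cox7b at 947 ± 167 and 968 ± 61.4. Cox6b2, the testis isoform of subunit 6B, was low at 21.9 ± 6.01 and 23.1 ± 1.30 FPKM, and Ndufa4l2, a hypoxia-induced relative of Ndufa4, at 13.2 ± 3.87 and 10.4 ± 0.688 FPKM. For each of these 9 the SD was larger in WT than in KO.

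Most of the factors that assemble the complex were lower in KO. Of 24 assembly factors tested, 19 were lower and 5 higher in KO with a median log2 fold change of −0.34. Over all 13331 tested genes 6446 were lower. An unadjusted p under 0.05 in limma was found for 8 of the factors, against 19.2% of all tested genes. Without each library in turn 18 to 20 were lower. Cox10, which makes the heme O precursor of the enzyme's heme A, fell from 28.4, 25.7 and 29.0 FPKM in WT to 16.9, 15.0 and 17.9 FPKM in KO (log2 fold change −0.71 in limma, SE 0.14, adjusted p 0.0419), the only 1 of the 24 that passed in this fit, where 1.01% of all genes were called lower. All 3 KO libraries lay well below all 3 WT libraries. Its call was lost without the filter on low values (limma adjusted p 0.0801), with the replicate number as a block (0.0640) and in each fit that left out a library (0.0507 to 0.140), while the log2 fold change stayed between −0.76 and −0.64. Cox11, which delivers copper to the catalytic core, was at 23.6, 23.6 and 24.0 FPKM in WT against 16.3, 14.6 and 14.7 in KO (log2 fold change −0.61 in limma, SE 0.13, adjusted p 0.0510). It passed in 4 of the 14 alternatives: with a filter at 5 FPKM, quantile normalization, median-of-ratios scaling and robust eBayes (limma adjusted p 0.0403 to 0.04996). Sco2, another copper chaperone, was at 5.68, 6.37 and 9.28 FPKM in WT against 3.03, 2.40 and 4.60 in KO (log2 fold change −0.91 in limma, SE 0.23, adjusted p 0.0804), and it passed with the replicate number as a block (limma adjusted p 0.0495). The groups overlapped for neither, and KO lay wholly below WT for 7 of the 24 factors, against 11.4% of all tested genes. Cmc1 was the only 1 of the 24 that lay higher in every KO library. Whether the assembly factors differed from the subunits was not tested.

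**Figure D4:**
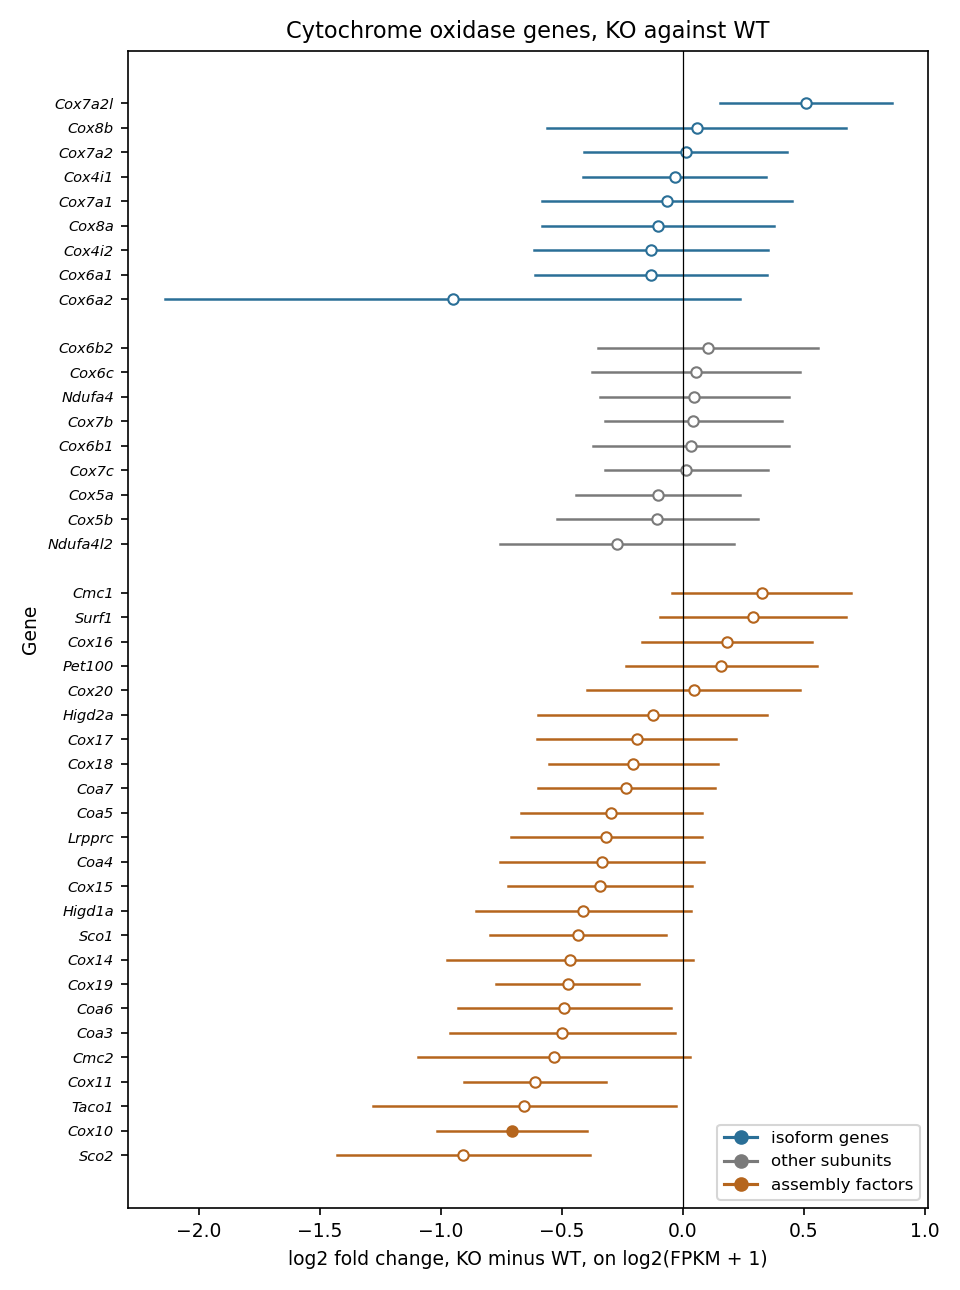
Log2 fold change of KO over WT, on the log2(FPKM + 1) scale, for the isoform genes, the other nuclear-encoded subunits and the assembly factors, with 95% confidence intervals from limma. A filled point marks an adjusted p under 0.05, reached by Cox10 alone, at −0.71, and Cox7a2l is the isoform gene with an interval above 0.

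The markers of macrophages, endothelium and red cells gave no calls, where 2.21% of all tested genes were called. Of 8 macrophage markers 8 were higher in KO with a median log2 fold change of 0.36, and none passed in limma. An unadjusted p under 0.05 was found for 3 of them, against 19.2% of all tested genes. Cd163, C1qb and C1qa had the smallest p (limma adjusted p 0.0831, 0.106 and 0.148). Of 8 endothelial markers 3 were higher and 5 lower, and of 8 erythroid markers tested 2 were higher and 6 lower, with no call in limma in either list and 1 and 0 unadjusted p under 0.05. The summed levels were 119 to 176 FPKM in WT and 163 to 226 FPKM in KO for macrophage markers, and 545 to 732 and 554 to 631 FPKM for endothelial markers. Hbb-b1 and Hbb-b2 were at 0 in some libraries, and the other erythroid markers were detected in all 6. The part of these cell types in the values of the isoform genes was not tested.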

How the data were processed

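Total RNA from interscapular brown fat was sequenced in 6 libraries, 3 WT and 3 KO, grouped by their titles. The authors deposited 1 table of FPKM values, rounded to 2 decimals, with the unit given per the file headers. The submitters' processing notes list HISAT2 2.0.4, Bowtie2 2.2.5, DESeq2 and the build mm10; the annotation, strand handling and counting step are not given in the sources used here. Without strand, reads of overlapping antisense genes cannot be told apart, and reads shared with near-identical copies could be split between genes.

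Values were transformed as log2(FPKM + 1), and the 13331 genes whose mean reached 0.5 FPKM were fitted with limma 3.58.1 in R 4.3.3 (eBayes with trend, no covariates), with Benjamini-Hochberg adjustment over all of them at 0.05. Fold changes on this scale understate those of low genes. Isoform ratios used FPKM without a pseudocount and exact two-sided permutation tests (scipy 1.17.1). The fit was tested on simulated data. Depth was estimated from single-transcript genes: 77.1% to 81.6% of low values came within 0.2 of whole reads, and 40.1% to 48.4% did with shuffled lengths. Depth limits the precision of Cox4i2 and Cox6a2 most.

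The members and lists were chosen with earlier results of these data known. Named genes are all 9 members, all other subunits and up to 3 genes with the smallest p per list. The 3 nearest genes to each tissue isoform are also named. Ddx3y, Xist, Cmc1, Ppargc1a, Cpt1b, Cidea, the Cox7a2l ratio and the scaling to muscle and Ucp1 were chosen after seeing values. Alternatives were other pseudocounts, filters, scalings, eBayes settings, the replicate block and leaving out each library; those for genes other than the 9 were added after seeing the data. Promoters and gene positions came from RefSeq on GRCm38.p6, and transcript lengths from GENCODE. Fstl1 and Ucp1 are named as checks.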

Additional observations from a re-analysis of the deposited data

How the results depend on the processing

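All 9 isoform genes missed the threshold in each of the 14 alternative fits. The count of called genes over the whole table, 295, came to 35 without the filter on low values (17 lower and 18 higher), to 167 with the replicate number as a block (73 and 94) and to between 31 and 370 when 1 library was left out, the lowest without WT replicate 3 and the highest without WT replicate 1. Same-numbered WT and KO libraries correlated in their deviations at 0.0681, 0.0433 and 0.0433, and differently numbered ones at −0.0781 to 0.0292. No shared origin is stated for libraries of the same number, so the numbers were not taken as pairs. The block changed no call of an isoform gene. Small differences changed sign. With quantile normalization the log2 fold change of Cox4i1 was 0.087, that of Cox7a2 −0.022 and that of Cox8a 0.0075, and with median-of-ratios scaling that of Cox7a2 was −0.013. Leaving out 1 library gave ranges of −0.16 to 0.12 for Cox4i1, −0.32 to 0.010 for Cox4i2, −0.33 to 0.10 for Cox6a1, −0.32 to 0.17 for Cox7a1, −0.15 to 0.18 for Cox7a2, −0.28 to 0.13 for Cox8a and −0.22 to 0.38 for Cox8b, and −0.29 to 0.050 for the log2 ratio of Cox4i2 to Cox4i1. The causes were not tested. Cox6a2 and Cox7a2l kept their direction in all 14, Cox6a2 between −1.44 and −0.24 with 1 library left out. Low read numbers limit Cox4i2 and Cox6a2, and ratios between isoforms depend on the transcript lengths used by the authors.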
